A study of Mus musculus with 6 samples.

Results

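The data describe chromatin contacts of the mouse Pax6 locus in P19 cells, embryonal carcinoma cells that enter a neuronal programme under retinoic acid. The locus was taken as a 550-kb interval of chromosome 2, chr2:105250001-105800000 in the mm9 build, and a contact belonged to it when at least 1 of its 2 bins of 5 kb lay in the interval. This rule chose 992 of the 3,654,010 pairs of bins listed on the nuclear chromosomes and used no count. Contacts were measured by Hi-C, in which DNA ends that lie near each other in fixed nuclei are ligated and the junctions are counted by sequencing. The 6 libraries formed 3 groups of 2 replicates: untreated cells (called 0 h), cells after 6 h in 1e-06 M all-trans retinoic acid (ATRA) and cells after 48 h in it. All groups were the same line, and the labels name no engineered allele. Untreated cells at 6 h or 48 h were not analysed here, so the effects of ATRA and of culture time cannot be told apart. Whether the 2 replicates of a group were separate cultures is not stated in the labels, and p-values therefore reflect the spread of these libraries alone, which may be technical. Hi-C counts hold no expression marker, so the state of the cells could not be checked from these data.

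Pax6 encodes a transcription factor with a paired domain and a homeodomain that is required for the eye, the forebrain and the pancreas, and it marks neural progenitors. It is known for enhancers that lie far from the gene, many of them inside introns of the neighbouring gene Elp4, which encodes a subunit of the Elongator complex. In the order of genes of the RefSeq annotation of GRCm38.p6, Pax6 stood between Paupar, a long noncoding RNA gene, and Elp4. Rcn1, which encodes a calcium-binding protein of the endoplasmic reticulum, and Wt1, a zinc-finger transcription factor gene, followed on the Paupar side, and Immp1l and Dnajc24 on the Elp4 side. No mm9 annotation was used here, so bins were described by position, and the borders of Elp4 and its enhancers were not placed. Pax6 itself was represented by a window of 30 kb, chr2:105510001-105540000 in mm9, called the Pax6 window below. The rule that defined the interval placed the gene near this window. Elp4 follows Pax6 towards higher coordinates.

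The RefSeq promoter table held 2 start sites of Pax6, 13,567 bases apart on the plus strand of GRCm38.p6. The 250 bases before each are shown because many of the contacts described here end in the window that holds the gene. Capitals mark matches to the motifs searched on both strands, which were AGGTCA, a retinoic acid receptor half-site, AGGGGGC, a core of the CTCF motif, TGACGTCA, a cyclic AMP response element, CCAAT and TATAAA.
Pax6 start 1, chr2:105668646-105668895, plus strand: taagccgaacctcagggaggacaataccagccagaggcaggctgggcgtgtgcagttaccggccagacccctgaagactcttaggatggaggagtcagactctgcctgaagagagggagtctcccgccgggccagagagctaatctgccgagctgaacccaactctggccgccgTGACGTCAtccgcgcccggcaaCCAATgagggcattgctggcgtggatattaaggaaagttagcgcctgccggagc
Pax6 start 2, chr2:105682213-105682462, plus strand: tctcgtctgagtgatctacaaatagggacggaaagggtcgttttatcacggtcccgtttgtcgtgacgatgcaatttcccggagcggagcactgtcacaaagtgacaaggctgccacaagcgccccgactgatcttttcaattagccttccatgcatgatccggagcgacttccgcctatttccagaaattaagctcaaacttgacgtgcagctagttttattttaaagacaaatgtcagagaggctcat
Start 1 held 1 match to TGACGTCA and 1 to CCAAT, and start 2 held no match to the 5 motifs. Of 32,851 promoters of the same length in the table, 1.55% held TGACGTCA, 33.9% CCAAT, 14.0% AGGTCA, 9.43% AGGGGGC and 12.4% TATAAA. The motifs did not overlap each other in these windows. The start 1 sequence had a GC content of 60.8% and the start 2 sequence 47.6%.

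At the Pax6 locus 433 pairs were listed at 0 h, 371 at 6 h and 483 at 48 h. The number at 6 h was 0.857 times that at 0 h, close to the 0.846 times of all chromosomes. The number at 48 h was 1.12 times that at 0 h, whereas all chromosomes together listed 0.955 times as many and chromosome 2 listed 0.948 times as many. Among 4567 intervals of the same length with at least 40 listed bins, the log2 ratio of listed pairs at 48 h over 0 h had a median of -0.02, an upper quartile of 0.10 and a 95th percentile of 0.29, and the Pax6 locus had 0.16. A list was given per time point and not per library, so these numbers have no replicate error and no test. Of the 110 bins of the locus, 82 had a listed pair and 28 had none. More pairs were listed at 48 h than at 0 h in 45 of the 82 bins, fewer in 26 and the same number in 11. At 6 h fewer pairs than at 0 h were listed in 51 bins and more in 20. Such bins were not counted on all chromosomes, where the 6 h list was also shorter than that of 0 h. These numbers of bins therefore describe the locus without a background.

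**Figure D1:**
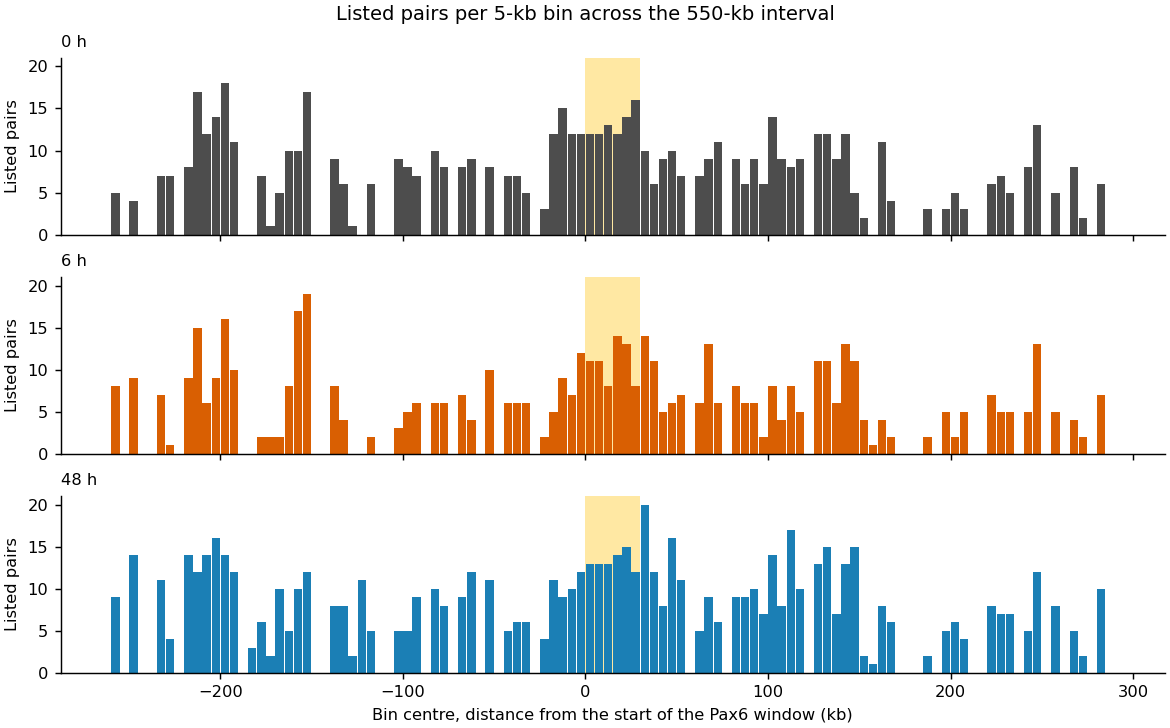
Number of listed pairs (y axis) for each 5-kb bin of the 550-kb interval at 0 h, 6 h and 48 h of ATRA, against the distance of the bin from the start of the Pax6 window (x axis, kb). The yellow band is the 30-kb Pax6 window, whose 6 bins had 12 to 16 pairs at 0 h, 8 to 14 at 6 h and 12 to 15 at 48 h.

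Most pairs of the locus were listed at 1 time point. Of the 992 pairs, 258 were listed at 0 h alone, 220 at 6 h alone and 305 at 48 h alone, together 78.9% against 68.3% on all chromosomes. Pairs listed at all 3 time points numbered 86, or 8.67% of the members against 14.9% of all pairs. Another 31 were listed at 0 h and 6 h, 58 at 0 h and 48 h, and 34 at 6 h and 48 h. Short and long pairs differed in this. Of the pairs under 20 kb listed at 0 h, 74.0% were listed again at 6 h and 86.5% at 48 h, against 75.4% and 81.7% on all chromosomes. Of the 329 pairs of 20 kb or more listed at 0 h, 40 were listed again at 6 h (12.2%, 95% Wilson interval 9.06 to 16.1) against 28.0% on all chromosomes. At 48 h, 54 of them were listed again (16.4%, interval 12.8 to 20.8) against 26.8%. These intervals cover counting error only, since pairs that share a bin are not independent and read pairs carry no molecular identifiers. The pairs of 20 kb or more were not matched for distance. At 0 h pairs of 20 kb to under 100 kb made up 19.6% of the locus list against 28.5% on all chromosomes. Pairs of 500 kb to under 1 Mb made up 17.8% against 8.98%. The part of this in the smaller overlap was not tested. The 40 pairs made up 14.2% of the distal list of 6 h, and the 54 pairs 14.8% of that of 48 h. Between 6 h and 48 h 41 distal pairs were shared, 14.5% of the 6 h list and 11.2% of the 48 h list.

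Distal pairs of the locus lay close to the lowest count that was listed. The lowest count listed at 120 kb was 7 and 5 read pairs in the replicates of 0 h, 7 and 5 at 6 h and 7 and 5 at 48 h. These are the lowest counts over all nuclear chromosomes, and the threshold that applied to a single pair of the locus is not known. Pairs of 20 kb or more with at least 1.5 times the lowest count in both replicates made up 7.60% of the distal pairs at 0 h, 9.22% at 6 h and 8.22% at 48 h. On all chromosomes the same shares were 16.1%, 15.1% and 14.7%. The median count of a member pair was 9 and 6 at 0 h, 8 and 5 at 6 h and 8 and 6 at 48 h, against 14 and 9, 13 and 8, and 12 and 9 for all pairs. The part of these low counts in the small overlap between time points was not tested.

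By distance, the larger 48 h list of the locus was spread over most classes. Pairs of 5 kb to under 20 kb numbered 104 at 0 h and 118 at 48 h, pairs of 20 kb to under 100 kb 85 and 91, pairs of 100 kb to under 200 kb 52 and 59, and pairs of 200 kb to under 500 kb 109 and 119. Pairs of 500 kb to under 1 Mb numbered 77 at 0 h, 71 at 6 h and 92 at 48 h, and pairs of 1 Mb or more 6, 12 and 4. On all chromosomes the 48 h list was 0.823 times that of 0 h in the class from 20 kb and 0.849 times in the class from 100 kb, where the locus had 1.07 and 1.13 times. From 500 kb to under 1 Mb the ratios were alike, 1.19 for the locus and 1.19 for all chromosomes. At 1 Mb or more they differed in direction, 0.667 for the locus and 1.49 for all chromosomes, on few pairs of the locus. The median distance was 135 kb at 0 h, 205 kb at 6 h and 125 kb at 48 h, against 75, 75 and 85 kb on all chromosomes.

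**Figure D2:**
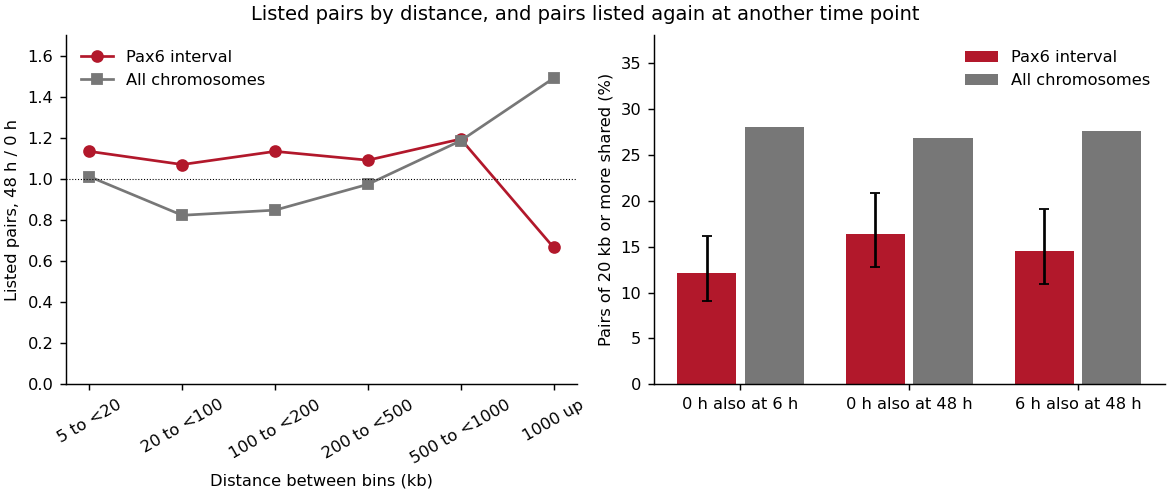
Left, listed pairs at 48 h divided by listed pairs at 0 h (y axis) by distance class in kb (x axis) for the Pax6 interval and all chromosomes, with a ratio of 1 as a dotted line. Right, percent of pairs of 20 kb or more listed at the first time point that were listed again at the second, with 95% Wilson intervals for the Pax6 interval, where 12.2% to 16.4% were listed again against 26.8% to 28.0% on all chromosomes. The right side is not matched for distance within this class.

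The Pax6 window took part in 139 of the 992 pairs. It had 72 listed pairs at 0 h, 58 at 6 h and 73 at 48 h, and 16 were listed at all 3 time points. Its 6 bins had a median of 12.5 pairs at 0 h, 11 at 6 h and 13 at 48 h, above the medians of 8, 6 and 9 for the bins of the locus. Bins of all chromosomes had medians of 9, 8 and 9 and upper quartiles of 14, 12 and 13. The medians of the Pax6 window were thus not above these upper quartiles. From lower to higher coordinate its bins had 12, 12, 13, 12, 14 and 16 pairs at 0 h, 11, 11, 8, 14, 13 and 8 at 6 h, and 13, 13, 13, 14, 15 and 12 at 48 h. The highest bin had the most at 0 h and the fewest, with another, at 6 h. Of its 57 pairs of 20 kb or more at 0 h, 11 were listed again at 6 h (19.3%) and 19 at 48 h (33.3%, 95% Wilson interval 22.5 to 46.3). Within the window 7 pairs were listed at each time point. The partners were not symmetric. Between 20 and 250 kb, 23 of 208 possible pairs towards higher coordinates, the Elp4 side, were listed at 0 h (11.1%), 11 at 6 h (5.29%) and 27 at 48 h (13.0%). Towards lower coordinates the same numbers were 10 of 208 (4.81%), 13 (6.25%) and 10 (4.81%). A possible pair joins 2 bins that each have a listed pair at some time point. On all chromosomes 7.51%, 6.15% and 6.36% of such pairs at the same distances were listed on the higher side. Between 250 and 550 kb the higher side held 17, 17 and 19 pairs of 301, or 5.65%, 5.65% and 6.31%, against 1.88%, 1.64% and 1.83% on all chromosomes. The lower side held 4, 2 and 2 of 272, or 1.47%, 0.735% and 0.735%, against 1.89%, 1.67% and 1.84% on all chromosomes.

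**Figure D3:**
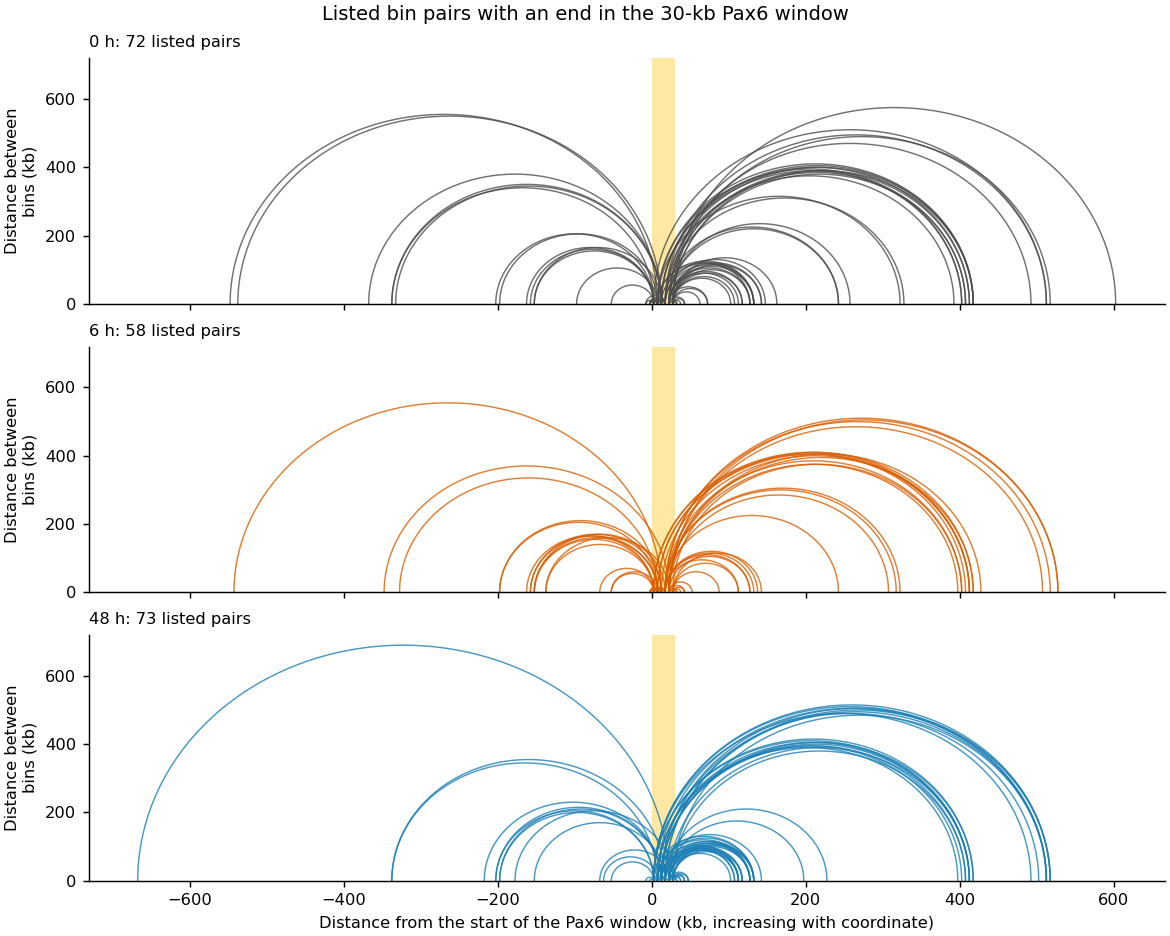
Each arc joins the 2 bins of a listed pair with an end in the 30-kb Pax6 window (yellow band) at 0 h, 6 h or 48 h of ATRA, drawn by distance from the start of the window (x axis, kb), and its height is the distance between the bins (y axis, kb). The 72, 58 and 73 pairs gather at a few partner positions, more of them at higher coordinates than at lower ones.

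Partners nearest to the window were few on the lower side, and on the higher side at or just below the median of windows of this size. Between 20 and 50 kb, 2 pairs at 0 h and 0 at 6 h and 48 h were listed of 32 possible pairs on the lower side, and 3, 2 and 3 of 32 on the higher side. A count of 0 listed pairs is no absence of contact, since pairs under the list's threshold have no count in the table. On all chromosomes 19.2%, 15.4% and 15.6% of pairs at these distances were listed. Of 17,330 windows of 30 kb with 6 listed bins, 62.1% had at least 3 pairs at 20 to 50 kb on the higher side at 0 h. At 6 h 68.4% had at least 2, and at 48 h 54.1% had at least 3. The medians of these windows were 4, 3 and 3 pairs on either side. The longest pair of the window was 575 kb at 0 h, joining bins centred at 105,537,500 and 106,112,500 with counts of 4 and 4. At 6 h it was 555 kb, to 104,967,500 with counts of 4 and 3, and at 48 h 690 kb, to 104,842,500 with counts of 3 and 3. Each of these 3 was listed at 1 time point.

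Many distal partners of the Pax6 window fell in 4 groups of bins, which were drawn after the partners were seen, so their shares are a description. The Elp4-side group covered chr2:105610001-105660000 and is named for its side of Pax6 alone, as its place relative to Elp4 was not determined. With it the Pax6 window had 15 listed pairs of 54 possible at 0 h (27.8%), 7 at 6 h (13.0%) and 22 at 48 h (40.7%), at 75 to 145 kb. All chromosomes listed 5.92%, 4.74% and 4.96% of pairs at these distances. The listed counts of these pairs summed to 151 and 119 in the 0 h replicates, 82 and 43 at 6 h, and 224 and 147 at 48 h. Single pairs had 5 to 17 read pairs at 0 h, 5 to 18 at 6 h and 5 to 16 at 48 h. Fewer pairs were listed at 6 h than at 0 h, and more at 48 h than at either. Among its bins, the bin chr2:105640001-105645000 was listed with 4 bins of the Pax6 window at 0 h, 1 at 6 h and 5 at 48 h. The bin chr2:105620001-105625000 was listed with 1, 2 and 5 of them. Between 100 and 150 kb on the higher side, the Pax6 window had 11, 5 and 14 listed pairs at the 3 time points. Of the 17,330 windows, 5.29% had at least as many in this range at 0 h, 11.5% at 6 h and 2.71% at 48 h. The range was chosen with the partners known, so these shares are a description and no test.

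A group at lower coordinates, chr2:105340001-105375000, went the other way. It had 4 of 30 possible pairs with the Pax6 window at 0 h (13.3%), 8 at 6 h (26.7%) and 1 at 48 h (3.33%), at 140 to 195 kb, against 4.50%, 3.71% and 3.61% on all chromosomes. The counts summed to 40 and 22 at 0 h, 75 and 46 at 6 h, and 6 and 5 at 48 h. Pairs of this lower group with the Elp4-side group followed the same order, with 4, 9 and 2 of 45. None of the pairs of the lower group with the Pax6 window was listed at all 3 time points. The difference between the 2 sides over time was not tested, since a list has no replicates.

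The remaining groups lay beyond the interval. Far group 1, chr2:105900001-105940000, had 11 of 42 possible pairs with the Pax6 window at 0 h (26.2%), 10 at 6 h (23.8%) and 10 at 48 h (23.8%), against 2.21%, 1.64% and 2.23% on all chromosomes. Its number of pairs was thus nearly the same at every time point, while 1 of its 22 pairs was listed at all 3. Far group 2, chr2:106000001-106040000, had 4, 4 and 9 of 42 pairs with the window, or 9.52%, 9.52% and 21.4%, against 1.14%, 0.861% and 1.23%. Of the 17,330 windows, 3.61%, 2.71% and 4.26% reached the window's 11, 10 and 10 pairs at 350 to 450 kb on the higher side. At 450 to 550 kb, 6.79%, 5.47% and 2.30% reached its 4, 4 and 9 pairs. Both ranges were chosen with the partners known. Far group 1 was listed with far group 2 by 1, 2 and 13 of 49 pairs, or 2.04%, 4.08% and 26.5%, against 6.38%, 5.08% and 5.23%. These numbers depend on the borders drawn: they were 4, 4 and 22 with both groups widened by 20 kb on each side, and 1, 1 and 6 with both narrowed by 5 kb. These last pairs lie outside the interval and are no members. Few pairs of any group passed the stricter threshold of 1.5 times the lowest count. Of the pairs with the Elp4-side group 1, 1 and 2 passed it at 0 h, 6 h and 48 h, and of those with the lower group 0, 3 and 0.

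**Figure D4:**
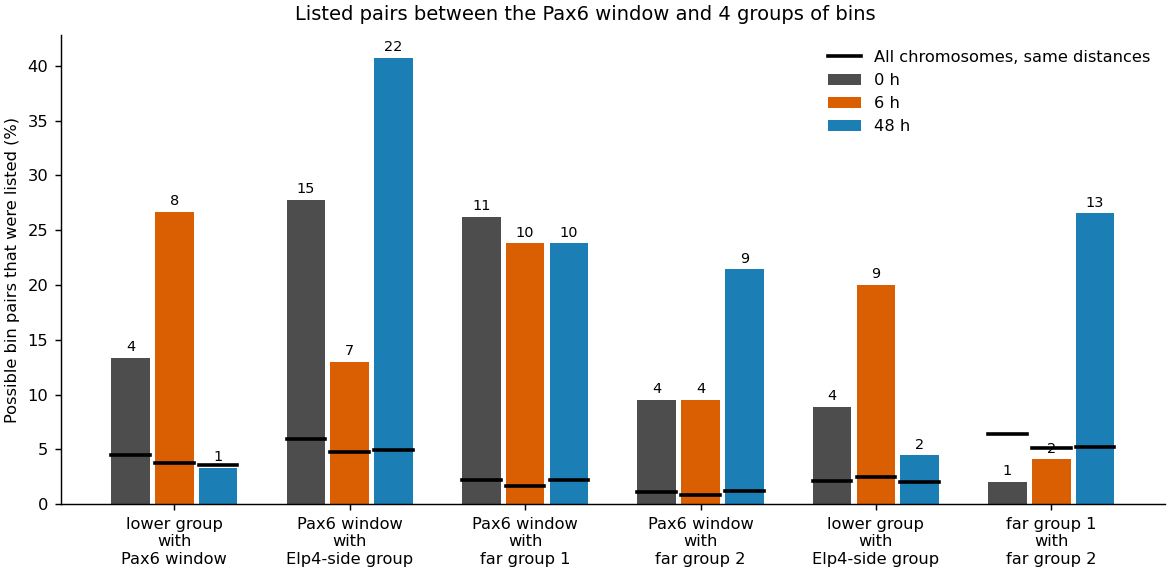
Percent of possible bin pairs that were listed (y axis) between the Pax6 window and 4 groups of bins, and between some of the groups (x axis), at 0 h, 6 h and 48 h, with the number of listed pairs above each bar. Black lines give the percent listed on all chromosomes at the same distances, and the Pax6 window with the Elp4-side group reached 27.8%, 13.0% and 40.7%.

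Outside the Pax6 window, 4 bins stood among the 5 bins with the most listed pairs. The bin chr2:105310001-105315000 had 18 pairs at 0 h, 16 at 6 h and 14 at 48 h. The bin chr2:105355001-105360000, inside the lower group, had 17, 19 and 12, and chr2:105295001-105300000 had 17, 15 and 12. The bin directly above the Pax6 window, chr2:105540001-105545000, had 10, 14 and 20, the largest number of any bin of the locus at 48 h. The fifth was chr2:105530001-105535000 of the Pax6 window itself, with 14, 13 and 15. The first 3 bins thus had fewer pairs at 48 h than at 0 h, and the bin next to the Pax6 window had more.

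The strongest distal pair for its distance joined bins centred at 105,357,500 and 105,507,500, the bin directly below the Pax6 window, 150 kb apart. It was listed at 6 h alone, with counts of 20 and 12, which was 3 times the lowest listed count. Its neighbour at 105,357,500 and 105,502,500 was listed at 0 h with 19 and 12 and at 6 h with 15 and 12, and not at 48 h. The pair of 105,357,500 with 105,517,500 in the Pax6 window was listed at 6 h alone, with 15 and 8. Another pair of 6 h alone was 105,612,500 with 105,757,500, with 13 and 9. The strongest of 0 h alone were 105,312,500 with 105,497,500, with counts of 17 and 8, 105,392,500 with 105,757,500, with 8 and 9, and 105,312,500 with 106,037,500, with 6 and 7. The strongest distal pairs of 48 h alone were 105,317,500 with 105,652,500, with 9 and 11, and 105,652,500 with 105,757,500, with 16 and 11. Both end in the Elp4-side group, as does the pair of 105,612,500 with 105,757,500 of 6 h alone. The bin centred at 105,757,500 was thus a partner in 1 of these pairs at each time point.

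The bin chr2:105385001-105390000 was listed at 48 h alone, with 0 pairs at 0 h and 6 h and 11 at 48 h. Its pair with the next lower bin had 278 read pairs in 48 h replicate 1 and 58 in replicate 2, the highest count of any member pair. For all pairs of 5 kb the median was 73 and 45 in these libraries, and the median ratio of replicate 1 to replicate 2 was 1.55. Without this bin 472 pairs of the locus were listed at 48 h, which is still more than at 0 h.

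The share of the listed read pairs held by the locus was higher at 48 h. Per 1,000,000 listed read pairs of the library, the members held 187.5 and 188.6 at 0 h, 179.3 and 191.6 at 6 h, and 227.3 and 222.3 at 48 h. Both 48 h libraries were above the other 4, and the means were 188 ± 0.756, 185 ± 8.66 and 225 ± 3.51 (SD, n = 2). In how many other intervals these shares separated in this way was not counted. The sum over listed pairs also moves with how many pairs are listed, which was 433, 371 and 483, so it is no measure of contact strength alone. With pairs listed at all 3 time points alone, and per 1,000,000 read pairs of such pairs, the means were 179 ± 4.76, 182 ± 8.32 and 193 ± 3.72. The 48 h mean was then closer to the others. An exact permutation test of 2 libraries against 2 cannot give a two-sided p below 0.333, so these shares were not tested singly.

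Contact counts were tested on pairs listed at all 3 time points, because only these have a count in every library. For the whole interval the normalised count (CPM, the count per 1,000,000 counts over all features of the same kind, with TMM scaling) was 175.2 and 170.7 at 0 h, 168.9 and 182.6 at 6 h, and 183.5 and 183.1 at 48 h. Both 48 h libraries were above both 0 h libraries, as in 23.8% of all intervals of this length, with 23.3% wholly below. The 6 h libraries spanned nearly the whole range. The log2 difference of 48 h from 0 h was 0.08 (SE 0.050, 95% interval -0.04 to 0.21, edgeR adjusted p = 0.486 over 4633 intervals). The 6 h counts differed from those at 0 h by 0.02 (interval -0.10 to 0.15, adjusted p = 1.00) and 48 h from 6 h by 0.06 (interval -0.06 to 0.19, adjusted p = 0.692). The edgeR test called 0% of all intervals of this length in each of the 3 comparisons. At an unadjusted p under 0.05 it gave 76 of them for 6 h over 0 h, 733 for 48 h over 0 h and 518 for 48 h over 6 h.

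In windows of 50 kb the summed counts were highest in the window around Pax6, which also summed the most pairs, 21 against 2 to 14 in the other windows, so these sums are compared between time points and not between windows. The window from 105,500,001, which holds the Pax6 window, had 29.2 and 31.5 CPM at 0 h, 28.4 and 32.1 at 6 h and 33.7 and 35.0 at 48 h. Both 48 h libraries were above all others, with a log2 difference from 0 h of 0.18 (SE 0.079, edgeR adjusted p = 0.594). The next window, from 105,550,001, had 21.6 and 23.1 at 0 h, 23.5 and 23.7 at 6 h and 25.2 and 25.2 at 48 h, a difference of 0.18 (SE 0.060, edgeR adjusted p = 0.536). The window from 105,600,001, which holds most of the Elp4-side group, had 22.5 and 22.3 at 0 h, 23.5 and 25.8 at 6 h and 25.5 and 26.3 at 48 h, a difference of 0.21 (SE 0.066, edgeR adjusted p = 0.521). The groups of 0 h and 48 h did not overlap in any of these 3 adjacent windows, but no difference passed the adjusted threshold of 0.05. Summed over pairs of at least 20 kb alone, the same 3 differences were -0.10, -0.09 and -0.26, so these directions did not hold for distal pairs.

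The window from 105,650,001 rested on 2 pairs. It had 4.55 and 4.06 CPM at 0 h, 5.82 and 6.87 at 6 h and 5.25 and 6.06 at 48 h, with a log2 difference of 6 h from 0 h of 0.55 (SE 0.181, edgeR adjusted p = 1.00). The window from 105,350,001, which holds most of the lower group, had 6.88 and 6.31 at 0 h, 5.85 and 6.18 at 6 h and 6.19 and 5.20 at 48 h, with a 48 h difference of -0.21 (SE 0.159, edgeR adjusted p = 0.768), which was -0.34 without 48 h replicate 1 and -0.10 without 48 h replicate 2. The other 6 windows differed between 48 h and 0 h by -0.14 to 0.12. At 48 h, 5 of the 11 windows lay wholly above 0 h and 2 wholly below, where 20.2% and 19.1% of all 49,387 windows did. The edgeR test called none of the 11 windows in any comparison, where it called 0%, 0.0263% and 0.0182% of all windows for 6 h over 0 h, 48 h over 0 h and 48 h over 6 h. At an unadjusted p under 0.05 it gave 1, 2 and 0 of the 11 windows, against 1.73%, 8.59% and 6.72% of all windows.

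**Figure D5:**
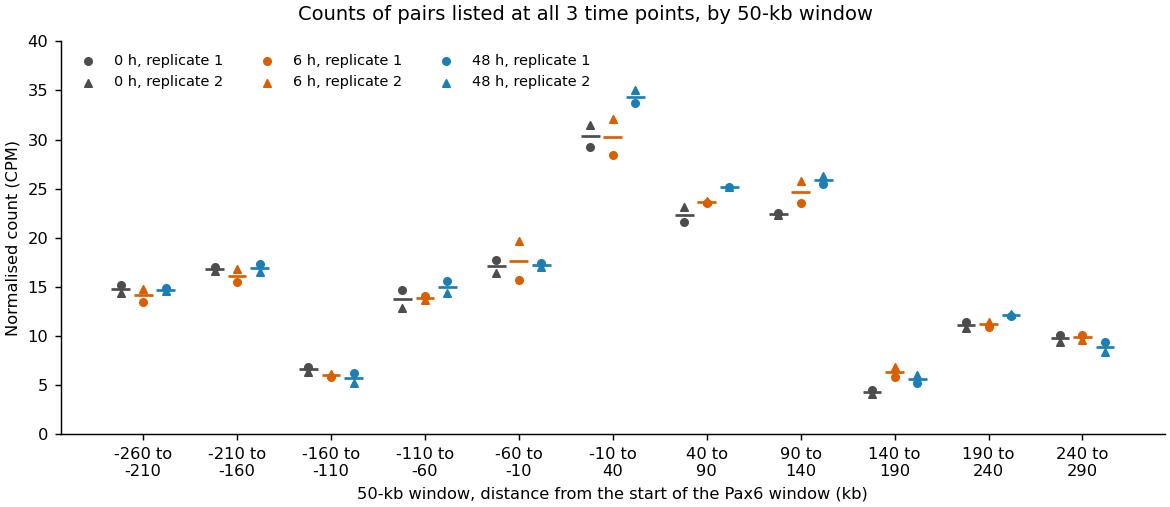
Normalised counts (y axis, CPM) of pairs listed at all 3 time points for the 11 windows of 50 kb (x axis, distance from the start of the Pax6 window in kb), with a point for each library and a line for the mean of 2 replicates. The window that holds the Pax6 window summed the most pairs and had the highest sums, and its 48 h libraries, at 33.7 and 35.0 CPM, lay above the other 4 libraries.

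The distal contacts of the Pax6 window that were listed at all 3 time points were 5 pairs. Summed, they had 8.68 and 8.70 CPM at 0 h, 8.19 and 10.2 at 6 h and 8.31 and 8.11 at 48 h. The 6 h libraries enclosed the 0 h libraries, and the 48 h libraries lay below those of 0 h by less than the spread at 6 h. Of all 51,614 windows of 30 kb, 10,590 likewise lay wholly below 0 h at 48 h and 10,163 wholly above. The log2 differences were 0.06 at 6 h (95% interval -0.30 to 0.42) and -0.08 at 48 h (interval -0.44 to 0.28), with an edgeR adjusted p of 1.00 for both and for 48 h over 6 h, where 0% of 51,614 windows were called in each comparison. The pair of 105,522,500 with 105,922,500 in far group 1, 400 kb apart, had counts of 7 and 3 at 0 h, 4 and 6 at 6 h and 4 and 5 at 48 h. The pairs with the Elp4-side group were 105,532,500 with 105,637,500, with 12 and 9, 9 and 6, and 9 and 9, and 105,527,500 with 105,642,500, with 17 and 5, 10 and 5, and 10 and 5. On the lower side 105,457,500 with 105,512,500 had 14 and 9, 17 and 16, and 16 and 8. The nearest, 105,532,500 with 105,552,500, had 25 and 19, 24 and 13, and 23 and 15.

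Of the 86 pairs listed at all 3 time points, 82 passed the filter on low counts, and the edgeR test called none of them in the 3 comparisons, where it called 0% of all 496,203 pairs in each. At an unadjusted p under 0.05 it gave 4 members at 6 h over 0 h, 10 at 48 h over 0 h and 4 at 48 h over 6 h, against 3.17%, 5.52% and 5.06% of all pairs. At 48 h over 0 h, 23 of the 82 lay wholly above 0 h and 10 wholly below, where 17.5% and 18.3% of all pairs did. The median log2 difference of the 82 was 0.05, and 56 of them were positive, with a median near 0 for all pairs. None of these members is a called change. At 48 h over 0 h DESeq2's test gave an adjusted p for 4 of the 11 windows and 15 of the 86 pairs and called none of these, where it called 0.235% of all windows and 0.0175% of all pairs. The members with no adjusted p could not be called. The pairs named here were those with the lowest p in each direction.

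The pair of 105,442,500 with 105,447,500, 5 kb apart, had counts of 77 and 35 at 0 h, 70 and 31 at 6 h and 115 and 68 at 48 h. Its 2.42 ± 0.392 CPM at 0 h and 4.35 ± 0.36 at 48 h (SD, n = 2) gave a log2 difference of 0.83 (SE 0.205, edgeR adjusted p = 0.764). The pair of 105,532,500 in the Pax6 window with 105,542,500, the bin directly above it, had 42 and 24, 54 and 36, and 63 and 34. It stood at 1.47 ± 0.00150 CPM at 0 h, 2.33 ± 0.340 at 6 h and 2.29 ± 0.336 at 48 h, so the 6 h and 48 h libraries were all above 0 h (log2 0.64 and 0.65, edgeR adjusted p = 1.00 and 0.845). Inside the Pax6 window, 105,512,500 with 105,517,500 had 62 and 37 at 0 h, 41 and 25 at 6 h and 35 and 26 at 48 h. Its CPM was 2.21 ± 0.0657, 1.69 ± 0.140 and 1.48 ± 0.116, lower in all 4 ATRA libraries than at 0 h (log2 -0.58 at 48 h, edgeR adjusted p = 0.842).

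Further pairs were named by lowest p and not by size, and some members that were not named had larger differences. The pair of 105,517,500 with 105,522,500 in the Pax6 window had 116 and 61, 76 and 40, and 80 and 57 (log2 -0.42 at 6 h). In the lower group 105,342,500 with 105,352,500 had 71 and 39, 54 and 37, and 46 and 23 (log2 -0.57 at 48 h). At the edge of the Elp4-side group 105,642,500 with 105,652,500 had 45 and 24, 56 and 29, and 52 and 35 (log2 0.48 at 6 h). The edgeR adjusted p of these 3 was 0.882 or more. Further up, 105,777,500 with 105,792,500 had 55 and 38, 50 and 37, and 39 and 27 (log2 -0.48 at 48 h over 6 h, edgeR adjusted p = 0.991). This difference was -0.74 without 6 h replicate 1 and -0.29 without 6 h replicate 2.

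Among all intervals of 550 kb, those whose log2 differences at 6 h and 48 h were nearest to those of the Pax6 locus were chr1:158600001-159150000, chr13:72250001-72800000 and chr1:128350001-128900000, over 3 time points. Their differences at 48 h were 0.08, 0.08 and 0.09. The listed counts of the libraries ranged from 23,003,295 to 50,154,643, and the members' from 4407 to 9888. Replicate 1 was the deeper at each time point.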

How the data were processed

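The authors deposited 1 table in which, per the file headers, each row is a pair of bins of 5 kb and each library has a column of raw counts of read pairs. The submitters' processing notes name CASAVA 1.8.2, Bowtie2 and the mm9 build. Which caller listed the pairs, its threshold, the restriction enzyme and whether bin coverage was corrected are not given in the sources used here. A pair was above 0 in both replicates of a time point or in neither, with 3 as the lowest count, and a 0 was read as not listed. The 4 mitochondrial pairs were left out.

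Listed pairs were counted and compared as sets. For pairs present in all 3 lists, counts were summed by interval of 550 kb, by window of 50 kb (a pair once per window), by window of 30 kb for pairs of 20 kb or more, or kept single. They were tested with edgeR 4.0.16 in R 4.3.3, with TMM factors, filterByExpr and the quasi-likelihood F test over all 6 libraries in 1 fit. P-values were two-sided and adjusted by Benjamini-Hochberg over all features at 0.05. The fits were tested on simulated counts first. The alternatives were DESeq2 1.42.0, its size factors, other filters, a block for the replicate number and fits that left out 1 library. Named were the interval, its windows, the bins and distal pairs of the Pax6 window, the 5 bins with most pairs, the 2 pairs of lowest p per comparison and direction, the 3 strongest pairs of a single time point and the longest of the Pax6 window. The interval, the lists, the groups of bins and the motifs were chosen with earlier results of these data known. Replicate numbers came from the titles and were not taken as pairs.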

Additional observations from a re-analysis of the deposited data

Results flagged for a closer look

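The pair of bins centred at 105,592,500 and 105,597,500, between the Pax6 window and the Elp4-side group, lay on opposite sides of 0 h at the 2 later times, which was not a called difference. It had counts of 69 and 37 at 0 h, 56 and 30 at 6 h and 84 and 52 at 48 h. Both 6 h libraries lay below the 0 h mean of 2.34 CPM and both 48 h libraries above it, and the mean at 48 h was 1.09 CPM above that at 6 h (2.16 ± 0.0184 and 3.25 ± 0.164, SD, n = 2). The difference of 48 h from 6 h was 0.59 on the log2 scale (edgeR adjusted p = 0.932).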

How the results depend on the processing

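No member window, pair or interval that was given an adjusted p had one under 0.05 in any comparison under any alternative: DESeq2's size factors or test, no filter, a replicate block, other distance limits, counts once per bin, offsets per distance class, or leaving out a library. DESeq2's test called 2 of all 4635 intervals for 6 h over 0 h. At 48 h it called 313 of them (6.75%) over 0 h and 137 (2.96%) over 6 h. The Pax6 interval was not among those called. DESeq2's test gave an adjusted p to only part of the members. At 48 h over 0 h these were 4 of 11 windows, 15 of 86 pairs and not the distal contacts of the Pax6 window, at 48 h over 6 h 5 of 86 pairs, and at 6 h over 0 h 7 of 11 windows. For the interval, leaving out each library gave log2 differences of -0.036 to 0.079 for 6 h over 0 h, 0.068 to 0.103 for 48 h over 0 h and 0.0072 to 0.122 for 48 h over 6 h, and for the distal contacts of the Pax6 window -0.086 to 0.225, -0.097 to -0.064 and -0.305 to 0.0065. The sign of 6 h over 0 h for both, and of 48 h over 6 h for the distal contacts, turned without 6 h replicate 2. With pairs of at least 20 kb the interval differed by -0.0099 for 48 h over 0 h and -0.056 for 48 h over 6 h, and the windows from 105,500,001, 105,550,001 and 105,600,001 by -0.097, -0.087 and -0.256. With pairs of at least 10 kb the distal contacts differed by 0.094 for 48 h over 0 h and 0.026 for 48 h over 6 h. The cause was not tested.

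With the replicate number as a block, 48 h over 0 h of the interval was 0.08 (edgeR adjusted p = 0.192), no member was called, and 719 of all intervals were called in place of 0. Same-numbered libraries deviated together (r = 0.87 to 0.95 over intervals), but the numbers are not stated to mark a shared culture.

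The stricter list held 64, 61 and 81 member pairs at 0 h, 6 h and 48 h, and 32 shared by each 2 time points. On all chromosomes it held 444,436 pairs at 0 h, of which 201,305 were shared with 6 h and 218,809 with 48 h. The part of the 0 h list that was shared was thus not smaller at the locus, unlike in the whole list. This overlap was not split by distance. Pairs with both bins in the interval numbered 241, 193 and 263. Pairs matched within 1 bin numbered 233 between 0 h and 6 h, 253 between 0 h and 48 h, and 204 between the later 2 lists. With pairs listed at all 3 time points alone, chosen after seeing the data, the locus held 179 at 0 h and 193 at 48 h of each 1,000,000 such read pairs. Pairs under the list's threshold have no count here.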
